A study of Mus musculus with 4 samples.

Results

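The cytoplasmic ribosomal protein genes were followed in mouse embryonic stem cells that lack both forms of glycogen synthase kinase 3 and in wild-type cells. They were taken as the protein-coding rows whose symbol is Rpl or Rps with a number, with the stalk genes Rplp0, Rplp1 and Rplp2 and the laminin receptor gene Rpsa, and without Rpl10l and pseudogene names. This gave 80 genes, 49 of the large and 31 of the small subunit, of 46603 genes in the authors' deposited table. The labels give 2 biological replicates of Gsk3a-/-;Gsk3b-/- cells and 2 of wild-type cells, all labelled as embryonic day 16 and grown in medium with 15% serum and 1000 units/mL of leukaemia inhibitory factor on irradiated embryonic fibroblasts. The design text gives another day number, and how the alleles were made was not stated. The table compares a group B with a group A, and no header or label tells the genotype of either, so each difference is stated as B over A, with no genotype assigned.

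Each cytoplasmic ribosome joins a large subunit, where peptide bonds form, to a small subunit, where the messenger RNA is read. One copy of nearly every ribosomal protein is built into each particle, and the acidic P proteins form a stalk that recruits elongation factors. Their messenger RNAs are among the most abundant of growing cells, and many begin with a C and a run of pyrimidines, the terminal oligopyrimidine tract, through which mTORC1 and the RNA-binding protein Larp1 control their translation.

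The tract was searched for at the annotated starts of the members. RefSeq promoters (GRCm38.p6, the same assembly as mm10) were given for 59 of the 80 members, in 71 windows. A C followed by at least 4 bases that are C or T stood exactly at the annotated start in 13 of the 71 windows (18.3%), from 13 members, against 2.51% of all 32851 promoters, with the gene's strand alone searched. Within 5 bases of the start it stood in 42.3% of the member windows and 18.3% of all. GENCODE M21 transcript starts carried it in 13.7% of 175 basic protein-coding transcripts of members and in 2.26% of 44510 such transcripts in the table. These shares describe annotated starts, which can lie away from the true one, and TATAAA was found within 50 bases of the start in 4 of the 71 windows (5.63%) and in 3.40% of all promoters, on the gene's strand. The 30 bases around the start are printed for 7 members that carry the tract and for Rpl39l, the member with the lowest log2 fold change, in which it was not found near the start. Capitals mark the tract, and the start is base 16.
Rps6, chr4:86857353-86857382, minus strand: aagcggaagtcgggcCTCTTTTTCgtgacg
Rplp2, chr7:141447636-141447665, plus strand: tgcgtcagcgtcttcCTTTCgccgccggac
Rps10, chr17:27635230-27635259, minus strand: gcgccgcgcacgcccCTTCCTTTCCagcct
Rpl15, chr14:18270972-18271001, minus strand: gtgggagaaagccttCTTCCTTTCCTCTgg
Rps15a, chr7:118116133-118116162, minus strand: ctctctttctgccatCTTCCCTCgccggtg
Rpl35, chr2:39005117-39005146, minus strand: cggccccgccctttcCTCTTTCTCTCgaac
Rps27, chr3:90213634-90213663, minus strand: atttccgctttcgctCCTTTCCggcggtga
Rpl39l, chr16:10170213-10170242, plus strand: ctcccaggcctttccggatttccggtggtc
Members with the tract at the start had a median log2 fold change of 0.03 (13 genes, 9 above 0), and the matched members without it also had 0.03 (42 genes with a count, 27 above 0).

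The table holds group means, from which the counts of the 2 libraries of each group were recovered and called B1, B2, A1 and A2, since their replicate numbers are not known. Normalized counts are reads scaled by each library's size factor. Total counts were 146326307 and 112655210 in the B libraries and 143182371 and 134463318 in the A libraries. Of the targeted genes, Gsk3a had normalized counts of 1697 and 1347 in group B and 6353 and 7104 in group A, and Gsk3b had 5051 and 5002 in group B and 5438 and 6285 in group A. Pou5f1, which marks pluripotent cells, averaged 99436 in group B and 120681 in group A. Summed levels of 22 feeder fibroblast markers were 262105 and 529734 in the B libraries and 375252 and 264634 in the A libraries. Those of 19 endoderm markers were 407391 and 274767 in group B and 160821 and 129748 in group A, and those of 18 macrophage markers 22367 and 29863 in group B and 28396 and 29914 in group A, with the X-linked Cybb at 0. Single macrophage markers mostly lay higher in group B than these sums show. Of the 17 with a mean of at least 10, 13 were above 0 and 4 below, with a median log2 fold change of 1.48. Both B libraries exceeded both A libraries in 13 of them and lay below both in 3, against 26.4% above and 26.0% below over all genes. Of 18 endoderm markers 10 lay above and 1 below in this way (median log2 fold change 1.39). Of 12 pluripotency markers 0 lay above and 8 below (median -0.32), and of 22 feeder markers 2 above and 0 below (median 0.17). Of the markers with a mean of at least 10, 4 of 17 macrophage markers rose and 1 fell, 2 of 12 pluripotency markers fell, and 0 of 18 endoderm and 0 of 22 feeder markers passed, in the authors' deposited table, where 1.54% of all genes rose and 1.92% fell. At an unadjusted p under 0.05 there, 10 endoderm markers (9 higher and 1 lower in group B) and 2 feeder markers (both higher) passed (10.5% of all genes). So did 9 macrophage markers that were higher and 1 that was lower in group B, and 5 pluripotency markers, all lower. In limma 4 endoderm markers and 1 feeder marker, Pdgfra, which is on both lists, passed an adjusted p of 0.05 (2.01% of all genes). There, 2 macrophage markers also passed, both higher, and 1 pluripotency marker, lower. The part of these other cells in the results was not tested, and in such bulk samples fewer cells of a type and less RNA per cell cannot be told apart.

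Of the 80 members, 4 were listed at 0 in all libraries, namely Rpl10, Rpl36a and Rpl39 of the large subunit and Rps4x of the small one. All 4 lie on the X chromosome. Every one of the 4208 genes of the table on X, Y or the mitochondrial genome was listed at 0, against 29993 of 41797 autosomal genes with a count. The zeros of these members therefore follow the chromosome, and no level can be read for them. All 76 autosomal members had a count and a mean of at least 10, the minimum used for the medians, and 71 of them had a mean above 10000 in group B and 70 in group A.

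Autosomal copies related to the X-linked members did have counts. The 4 named Rpl10 pseudogenes with a count summed to 470378 normalized counts in group B and 471436 in group A. The 3 of Rpl36a summed to 75135 in group B and 75200 in group A, and the copy of Rpl39 had 43018 in group B and 43802 in group A. These sums were nearly equal in the groups. Rps4l, listed as a transcribed pseudogene and 80.2% identical to the Rps4x coding sequence, had 54199 and 47256 in group B and 62955 and 59600 in group A. In the authors' deposited table its log2 fold change was -0.27 (adjusted p 0.815).

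Together the members took 4.74% and 4.91% of all counts in the B libraries and 4.76% and 4.55% in the A libraries. The ranges overlapped, and the means of 4.83% ± 0.12 in group B and 4.66% ± 0.15 in group A (SD, n = 2 each) did not differ beyond the spread (two-sided exact permutation test, p = 0.667, where 0.33 is the smallest p that 2 against 2 libraries can give). The large subunit took 2.64% ± 0.05 in group B and 2.59% ± 0.08 in group A, with overlapping libraries. The small subunit took 2.14% and 2.25% in the B libraries and 2.12% and 2.01% in the A libraries, so that both B libraries were higher, with a p of 0.33 in the exact permutation test.

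No member passed an adjusted p of 0.05 in the authors' deposited table, 0 of 76, against 3.46% of the 30237 genes with a count. At an unadjusted p of 0.05, 1 member passed, Rpl39l, against 10.5% of all genes. With limma on the recovered counts, fitted to 20465 genes with a mean of at least 10, 0 members passed the adjusted threshold (2.01% of all genes did) and 8 the unadjusted one (20.7% of all genes). The median log2 fold change of the members was 0.03, and it was 0.01 over genes that reached a mean of 10. Of the 76 members, 49 were above 0 and 27 below, while 51.3% of all genes lay above 0. Between libraries of a group, the members' median log2 ratio was -0.08 for A2 over A1 and 0.02 for B2 over B1. Over all genes these medians were 0.003 and -0.02. The members' median thus differed more between the A libraries than between the groups, and without A2 only 39 of the 76 members lay above 0. Both B libraries lay above both A libraries in 25 members and below both in 9, and the groups overlapped in the other 42. Over all genes the groups did not overlap in 52.5%, with 26.4% above and 26.0% below. At an adjusted p of 0.1 in the authors' deposited table Rpl39l alone passed, against 4.52% of genes. A log2 fold change within 0.1 of 0 was found in 55 members, or 72.4%, while 23.8% of all genes tested in limma and 39.7% of the 2901 whose mean reached 10000 lay so close. The standard deviation of the log2 fold change was 0.241 over the 76 members and 0.277 over those 2901 abundant genes. Over the 72 members left without Rpl39l, Rpl3l, Rps27l and Rpl6l, a choice made after the values were seen, it was 0.097, with no such trimming of the abundant genes.

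**Figure D1:**
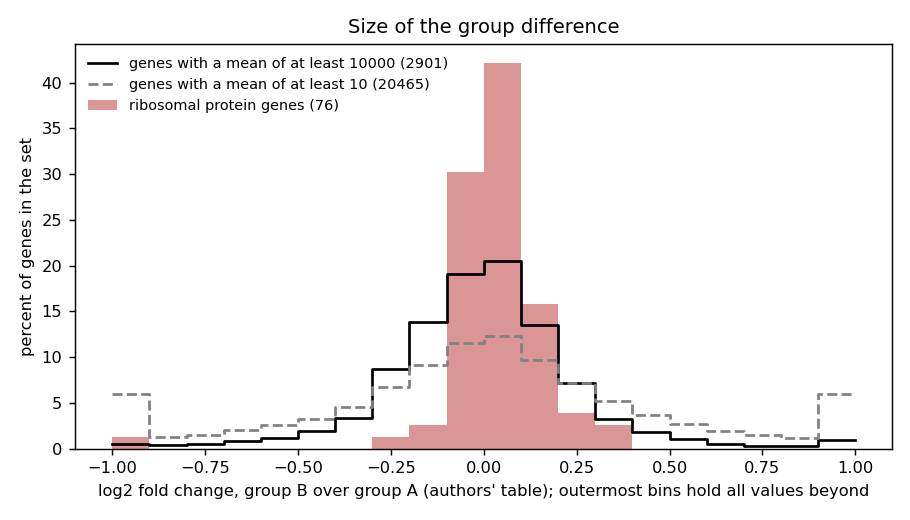
Distribution of the log2 fold change (group B over group A, x axis, in bins of 0.1) as percent of the genes in each set (y axis), for the 76 members with a count (bars), for 2901 abundant genes (black line) and for the 20465 genes tested in limma (grey dashed line). The members crowd around 0, with 72.4% of them within 0.1, and the single bar at the left edge is Rpl39l.

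All 3 stalk protein genes lay above 0. Rplp0 (ENSMUSG00000067274, chromosome 5, 115559467 to 115563727, mm10), which anchors the stalk, had the highest log2 fold change of all members. Its normalized counts were 179237 and 184148 in group B and 145442 and 142021 in group A, so the groups lay apart by far more than their libraries. The log2 fold change was 0.34, with an adjusted p of 0.530 in the authors' deposited table and of 0.0600 in limma (SE 0.06). Rplp1, a P protein bound to Rplp0, had 178042 and 184082 in group B and 165639 and 156843 in group A, and its log2 fold change was 0.17 with an adjusted p of 1 in the authors' deposited table. Rplp2, its partner, had 78632 and 79578 in group B and 71331 and 67806 in group A (0.19, adjusted p 1, authors' deposited table). For all 3 genes B1 and B2 exceeded A1 and A2, as was so for 26.4% of all genes. None of the 3 passed an adjusted threshold, with limma adjusted p values of 0.230 for Rplp1 and 0.217 for Rplp2, while all 3 had an unadjusted p under 0.05 in limma, as did 20.7% of all genes.

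Small-subunit members had a median log2 fold change of 0.07 (30 genes, 21 above 0) and large-subunit members one of 0.02 (46 genes, 28 above 0). B1 and B2 exceeded both A1 and A2 in 14 of the 30 small-subunit genes and 11 of the 46 large-subunit genes, and lay below both in 2 small-subunit and 7 large-subunit genes, against 26.4% above and 26.0% below over all genes. The difference between the subunits was not tested. Of the 10 members with the highest log2 fold change 7 were of the small subunit, and of the 10 lowest 2 were.

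The next members in rank were of the small subunit. Rps20, a protein of the small-subunit head, had 111524 and 122616 in group B and 99058 and 91053 in group A (log2 fold change 0.30, SE 0.08, limma adjusted p 0.127). Rps12 had 53643 and 52959 in group B and 46755 and 42596 in group A (0.26, SE 0.08, limma adjusted p 0.161). Rps29, a zinc-binding protein, had 57328 and 69566 in group B and 55095 and 51634 in group A (0.24, SE 0.11, limma adjusted p 0.288). The groups of Rps29 came close, because B1 lay only a little above A1. Rps2, at the messenger RNA entry channel, had 269535 and 295900 in group B and 239991 and 238351 in group A (0.24, SE 0.07, limma adjusted p 0.136). In all 4 genes, which were picked for a high log2 fold change, both B libraries lay above both A libraries, as was so for 26.4% of all genes. Adjusted p values in the authors' deposited table were 0.697 to 0.918.

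Other well-known members had log2 fold changes between -0.05 and 0.13. Rps6, the small-subunit protein phosphorylated by S6 kinase downstream of mTORC1, had 105013 and 107219 in group B and 108388 and 104715 in group A. The libraries of the groups overlapped (log2 fold change -0.01, SE 0.07, limma adjusted p 0.976). Rpsa had 246216 and 269836 in group B and 235197 and 236885 in group A (limma log2 fold change 0.13, SE 0.07, adjusted p 0.363). Rps19, whose human ortholog is mutated in Diamond-Blackfan anaemia, had 91608 and 91984 in group B and 87573 and 83792 in group A (0.10, SE 0.07, adjusted p 0.464). In both Rpsa and Rps19 the B libraries lay above the A libraries, as was so for 26.4% of all genes. Of the pair that binds 5S RNA and the p53 inhibitor Mdm2, Rpl5 had 100288 and 103167 in group B and 96480 and 95563 in group A, and Rpl11 had 45492 and 45066 in group B and 48645 and 45309 in group A. Their limma log2 fold changes were 0.08 and -0.05, with adjusted p values of 0.532 and 0.763, and the groups overlapped for Rpl11 but not for Rpl5. Rps27a, made as a fusion with ubiquitin, had 51332 and 48945 in group B and 49953 and 47324 in group A (0.04, adjusted p 0.805).

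**Figure D2:**
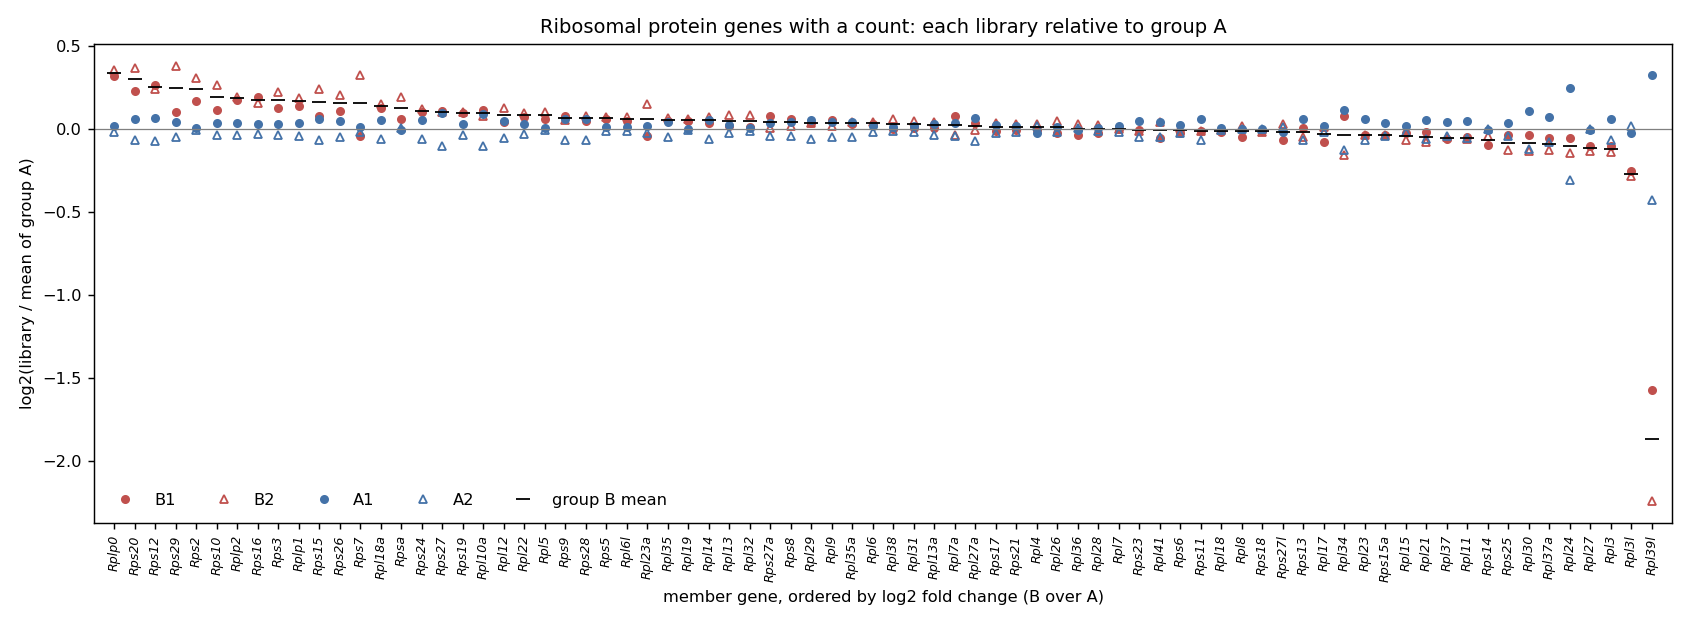
Each library's normalized count over the mean of group A (log2, y axis) for the 76 members with a count, ordered by log2 fold change (x axis). Red symbols are B1 and B2, blue symbols A1 and A2, and black dashes the group B mean. From Rplp0 at 0.34 down to Rpl3 at -0.12 the members form a shallow slope, Rpl3l at -0.27 lies below it, and Rpl39l at -1.86 stands apart.

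At the low end, Rpl3, a protein near the peptidyl transferase centre, had 107527 and 104778 in group B and 120197 and 109955 in group A. Rpl27 had 39659 and 38785 in group B and 42427 and 42562 in group A. Both had limma log2 fold changes of -0.12 (SE 0.07, adjusted p 0.442 and 0.433). In each, both B libraries lay below both A libraries, as was so for 26.0% of all genes. Rpl3l, the striated-muscle paralog of Rpl3, had 142 and 140 in group B and 167 and 172 in group A (limma log2 fold change -0.26, SE 0.24, adjusted p 0.592).

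Rpl39l (ENSMUSG00000039209, chromosome 16, 10170226 to 10174911) differed most. It is a paralog of the X-linked Rpl39, a small protein of the peptide exit tunnel, and is known for its expression in male germ cells. Its normalized counts were 1355 and 852 in group B and 5050 and 2989 in group A. Both B libraries were below both A libraries, and the libraries within each group also differed, with log2 ratios of -0.67 for B2 over B1 and -0.76 for A2 over A1. The log2 fold change was -1.86, with an adjusted p of 0.0826 in the authors' deposited table, and limma gave -1.85 (SE 0.32, adjusted p 0.0545), so it missed the threshold in both. In limma with another scaling, by upper quartile, the adjusted p was 0.0492, and with no filter on low counts it was 0.0493, both just under the threshold. Over all genes 2.40% and 1.36% passed in those settings. Leaving out 1 library gave log2 fold changes of -2.19 without B1, -1.52 without B2, -1.47 without A1 and -2.23 without A2. Rpl39 itself could not be read. Coding sequences of Rpl39 and Rpl39l were 85.5% identical, with a longest identical run of 38 bases.

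Rpl10l, which the gene set leaves out, is the other germ-cell paralog of an X-linked member, and it was the sole ribosomal protein paralog past the threshold among the 9 related genes examined. It had 7610 and 4568 normalized counts in group B and 17859 and 16023 in group A. In the authors' deposited table its log2 value fell by 1.48, with an adjusted p of 1.06e-07. In limma it fell by 1.52 (SE 0.24, adjusted p 0.0458, close to the threshold). With 1 library left out its limma log2 fold change was -1.89 without B1, -1.15 without B2, -1.44 without A1 and -1.60 without A2. Its coding sequence was 84.7% identical to that of Rpl10, with a longest identical run of 23 bases, and the named Rpl10 pseudogenes were level between the groups. Rpl36al, the autosomal paralog of Rpl36a, had 32184 and 36405 in group B and 35431 and 36020 in group A. In the authors' deposited table its log2 fold change was -0.06 (adjusted p 1).

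**Figure D3:**
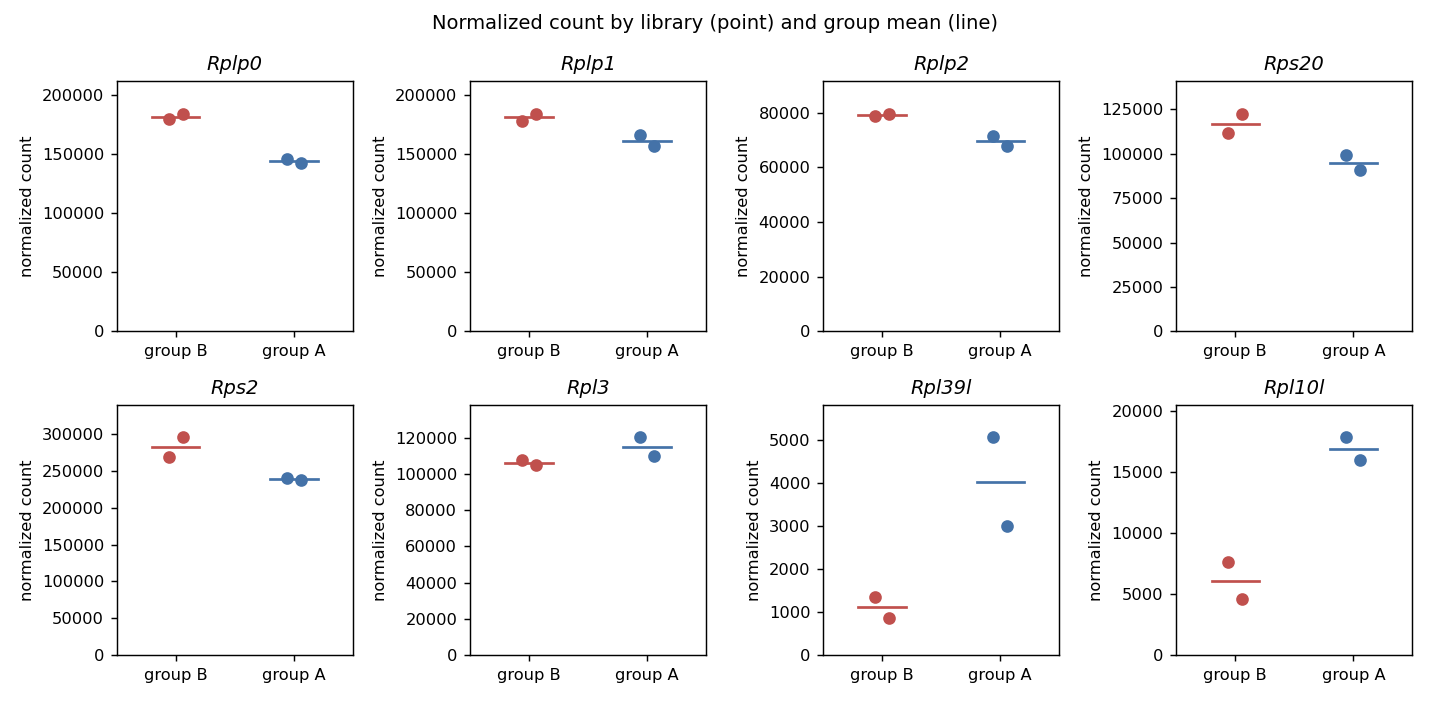
Normalized count (y axis, from 0) of 8 genes in group B (red, left) and group A (blue, right), each point a recovered library and each line the mean of 2. Rplp0, Rplp1, Rplp2, Rps20 and Rps2 lie higher in group B without overlap, Rpl3 a little lower, and Rpl39l and Rpl10l lower by 1.86 and 1.48 on the log2 scale.

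The other paralog pairs were close between the groups or missed the threshold. Rps27 had 16473 and 16411 in group B and 16318 and 14236 in group A, and its paralog Rps27l, a p53 target, had 34260 and 36589 in group B and 35384 and 36150 in group A. Their limma log2 fold changes were 0.11 and -0.01 (adjusted p 0.606 and 0.943). Rpl22 had 59358 and 60474 in group B and 57722 and 55300 in group A (0.08, adjusted p 0.566), and Rpl22l1 had 7949 and 8381 in group B and 9454 and 8177 in group A (-0.11, adjusted p 0.654). Rpl7 had 184669 and 184607 in group B and 187062 and 182252 in group A, a difference near 0. Rpl7l1 had 32943 and 28685 in group B and 42713 and 40072 in group A, apart by -0.43 (SE 0.10, limma adjusted p 0.0887). Among ribosomal proteins whose names fall outside the rule, Rack1, a scaffold protein on the small subunit, averaged 327691 ± 1312 in group B and 306563 ± 3073 in group A (SD, n = 2 each), with an adjusted p of 1 in the authors' deposited table. Rps3a1 averaged 48949 in group B and 47587 in group A, and Fau, a fusion that yields a small-subunit protein, 23036 in group B and 21511 in group A (adjusted p 1 for both, authors' deposited table).

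Levels were compared per kilobase of exon, the union of all annotated exons of a gene. The median member had 33862 normalized counts per kb in group B and 32828 in group A, against 303 in group B and 292 in group A over the genes tested in limma. Of the 76 members 66 lay within 4-fold of the members' median, and 45 were among the 500 highest genes of the table. Rplp1 was highest, at 362850 per kb in group B and 323128 in group A, followed by Rpl8 (220706 in group B and 222286 in group A), Rpl4 (189652 in group B and 187911 in group A), Rps15 (196717 in group B and 175389 in group A) and Rps2 (154490 in group B and 130695 in group A). Rpl8 and Rpl4 differed by less than their libraries did, while both B libraries of Rps15 were above both A libraries by a small margin.

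Rpl3l was lowest, at 85.7 per kb in group B and 103 in group A, below Rpl24, with 301 in group B and 322 in group A. Rpl24 shares exon sequence on its own strand with the annotated gene Gm28037, and its normalized counts were 320 and 300 in group B and 395 and 269 in group A. Rpl34 (2394 in group B and 2450 in group A), Rpl39l (1328 in group B and 4837 in group A) and Rpl30 (6004 in group B and 6360 in group A) completed the 5 lowest. Among the members with the largest ratios between libraries of 1 group besides Rpl39l, Rpl24 had a log2 ratio of -0.55 and Rpl34 of -0.24 in A2 over A1, and Rps7 and Rps29 had 0.37 and 0.28 in B2 over B1. In all, 37 members share exon sequence with another annotated gene, often a small nucleolar RNA gene, and whether counting used strand was not stated.

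**Figure D4:**
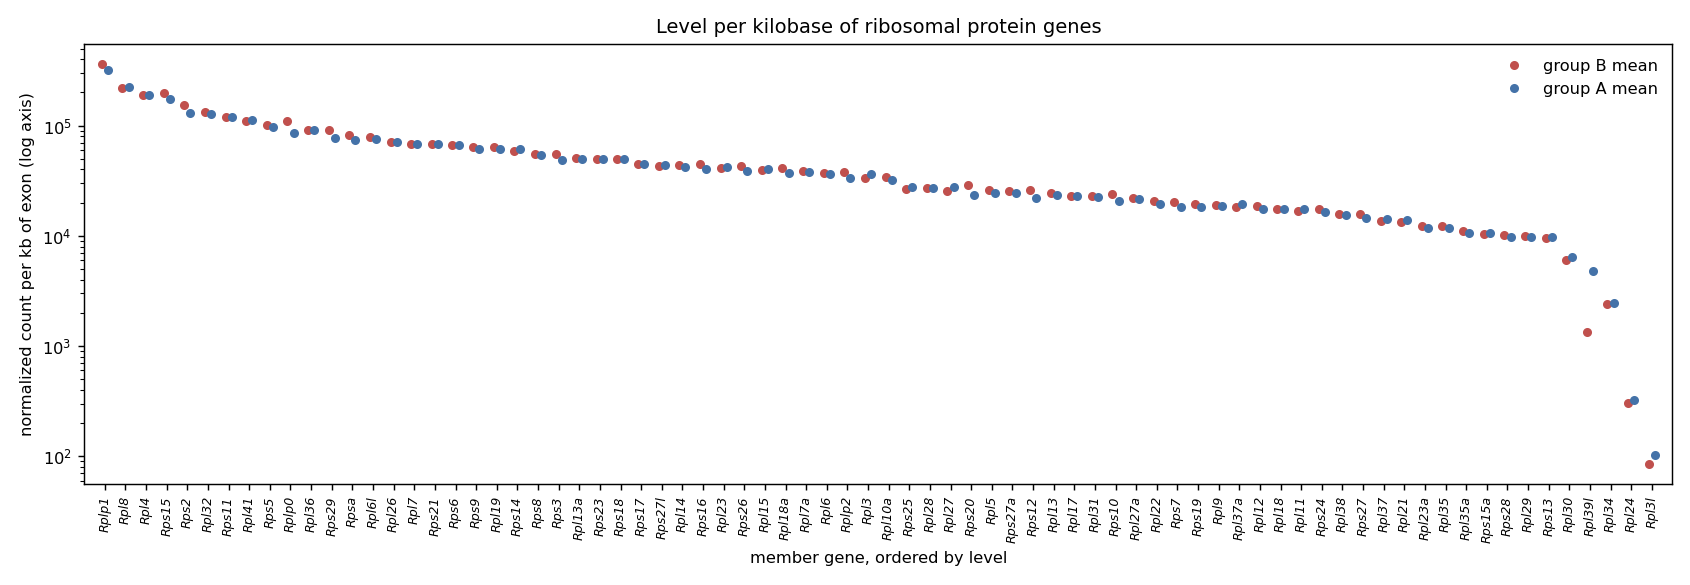
Mean normalized count per kilobase of exon (y axis, log scale) of the 76 members with a count, ordered by level (x axis), in group B (red) and group A (blue). Red and blue points nearly coincide for most members, the 5 lowest drop away from the rest, and Rpl39l alone shows a wide gap between the groups.

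Processed pseudogenes of members carried many counts. The table holds 269 rows named as ribosomal protein pseudogenes, 199 with a count, and they summed to 5508145 normalized counts in group B and 5215488 in group A. They took 4.06% and 4.19% of all counts in the B libraries and 4.02% and 3.86% in the A libraries, close to the share of the members. In 25 of the 53 members that had a count and a named copy, the copies together exceeded the member. Rpl34 was lowest against its copies, with 6328 in the gene and 72701 in its copies in group B, and 6474 in the gene and 69257 in its copies in group A. The copies of Rps2 summed to 514880 in group B and 434985 in group A, and those of Rps12 to 346227 in group B and 280342 in group A. For Rps2 and Rps12, then, the copies were higher in group B, as the member was. Over the 37 members whose copies summed to at least 10000 in group A, Pearson's r between the log2 fold change of the member and that of its copies was 0.956. Members and copies may share reads, so this only describes the table. Counts of a member and its near-identical copies are uncertain, as is the split between Rps27 and Rps27rt, with identical coding sequences, or Rpl6 and Rpl6l, 98.7% identical. The same holds for Rps12 and the processed pseudogene Rps12l1, which was 100% identical over the Rps12 coding sequence and is not among the named copies. Rps12l1 averaged 161261 in group B and 130926 in group A (log2 fold change 0.30), more than Rps12 itself. Of the pseudogene rows 0 passed the authors' adjusted threshold, 0 passed in limma, and 3 had an unadjusted p under 0.05 in the authors' deposited table. Over all genes these shares were 3.46%, 2.01% and 10.5%.

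**Figure D5:**
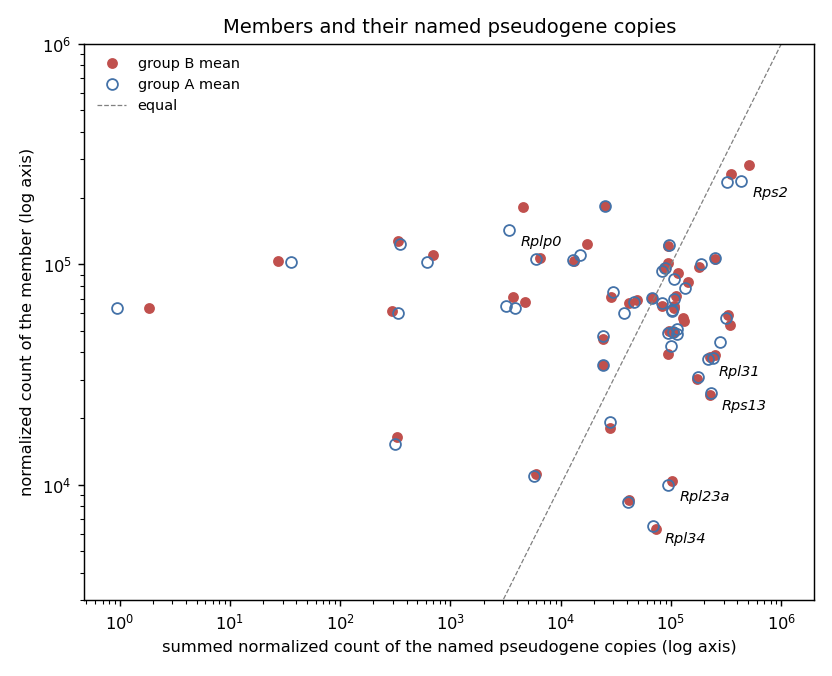
Normalized count of each member (y axis, log scale) against the summed count of its named pseudogene copies (x axis, log scale), as means of group B (filled red) and group A (open blue), with a dashed line of equality. Members right of the line, such as Rpl34, Rpl23a and Rps13, have fewer counts than their copies, and the 2 groups fall almost on the same points.

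Lists of genes that build and serve the ribosome had no member past the threshold. Of 28 assembly factors and nucleolar proteins with a mean of at least 10, 0 passed the authors' threshold (1 at an unadjusted p, lower), and their median log2 fold change was -0.08. Nucleolin, Ncl, averaged 368348 in group B and 377707 in group A, and Npm1 283336 in group B and 297450 in group A. Of 22 genes of RNA polymerases I and III, which make ribosomal RNA and transfer RNA, 0 passed by either p in the authors' deposited table or in limma (median -0.08). Of 33 translation factors 0 passed by either p in the authors' deposited table (median 0.05), and 6 had an unadjusted p under 0.05 in limma. Eef1a1, which brings transfer RNA to the ribosome, averaged 1222103 in group B and 1181855 in group A, and Eef2, which moves the ribosome on, 450550 in group B and 417431 in group A. Of 13 hosts of small nucleolar RNAs 0 passed by either p in the authors' deposited table, and 2 had an unadjusted p under 0.05 in limma (median 0.09). Over all genes 3.46% passed the adjusted and 10.5% the unadjusted p in the authors' deposited table, and 20.7% the unadjusted p in limma. Taken by library against the mean of group A, the median of the assembly factors was -0.20 in B2 but 0.05 in B1, that of the polymerase genes -0.16 in B2 but 0.03 in B1. For the translation factors it was -0.01 in B2 and 0.08 in B1, and for the small nucleolar RNA hosts -0.08 in B2 and 0.04 in B1, so none of these 4 lists had 1 sign in both B libraries.

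Regulators of mTORC1 and of terminal oligopyrimidine messages had 1 of 20 genes past the threshold. Akt1s1, the mTORC1 inhibitor PRAS40, rose, with a log2 fold change of 0.66 and an adjusted p of 0.0141 in the authors' deposited table (1.54% of all genes passed upward), and had 9505 and 10644 normalized counts in group B and 5959 and 6761 in group A, and limma gave an adjusted p of 0.0571. Larp1 averaged 37889 in group B and 40636 in group A. Mitochondrial ribosomal proteins, which belong to the separate ribosome of that organelle, had a median log2 fold change of -0.09 over 76 genes, with 24 above 0 and 52 below. Both B libraries were below both A libraries in 35 of them and above in 13, while in the cytoplasmic set the counts were 9 below and 25 above, against 26.0% below and 26.4% above over all genes. Mrpl18 fell, with a log2 fold change of -0.63 and an adjusted p of 0.0277 in the authors' deposited table (1.92% of all genes passed downward), and had 8727 and 7370 in group B and 12637 and 12216 in group A, and of the mitochondrial genes it was the only one to pass there. In limma 0 passed, Mrpl18 at an adjusted p of 0.0602. The difference between the cytoplasmic and mitochondrial sets was not tested.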

How the data were processed

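RNA sequencing of polyadenylated RNA was summarised by the authors in 1 table, and the submitters' processing notes name STAR, DESeq and mm10 but no versions. Per the file headers, the deposited table gives each gene's mean normalized count (a signal) per group, the fold change as a ratio, its log2, and p-values with adjusted p-values. An adjusted p of 0.05 in the authors' test was the main threshold. The read counter, its use of strand and the annotation were not stated. The 5 repeated rows were used once. Group means were split into whole counts of 2 libraries, within 1e-06 for every gene, and these normalized counts were tested in limma 3.58.1 (R 4.3.3) on log2(normalized count + 1) with a trended variance, which understates changes of low genes, for genes with a mean of at least 10, with Benjamini-Hochberg adjustment over all genes tested. The p-values set the group difference against the spread between 2 libraries a group, which limma moderates with the variance over all genes tested. Recovery and limma were tested on simulated data. Positions and exon lengths are from GENCODE M21, and coding sequences were aligned with Biopython 1.88. Genes named are the highest and lowest members by log2 fold change, level and library ratio, paralog pairs, stalk and well-known members, and list members past the threshold or of highest mean. The members and lists were chosen with earlier results of these data known.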

Additional observations from a re-analysis of the deposited data

How the results depend on the processing

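No paired analysis was possible because the columns carry no replicate numbers. In the authors' deposited table the number of members called was 0, and it was 1 at an adjusted p of 0.1 (Rpl39l) and 1 with the ribosomal proteins outside the rule added (Rpl10l). In limma it was 0, and 1 with those proteins added, 1 with upper-quartile scaling and 1 without a filter on low counts (Rpl39l in both of the last). Over all genes 2.01% passed in the main setting, 2.40% with upper-quartile scaling and 1.36% without the filter. Leaving out 1 library gave 0 to 3 members: Rpl39l, Rps2 and Rplp0 without B1, Rpl39l and Rplp0 without B2, and none without A1 or A2, where no gene of the table passed. A lone library is then assumed to vary like the other group. Rplp0 kept its sign in the 11 alternatives, with log2 fold changes of 0.31 to 0.36, and so did Rpl39l (-2.23 to -1.47). The members' median log2 fold change stayed above 0 and within 0.00079 to 0.069. The members above 0 numbered 49 of 76, 41 with upper-quartile scaling, 59 without A1 and 39 without A2. Of the members named, 9 changed sign in at least 1 alternative: Rpl24, Rpl30, Rpl34, Rpl4, Rpl7, Rpl8, Rps27l, Rps6 and Rps7. Levels per kb were higher by longest transcript (median 54847) than by union of exons (34012). The spread between 2 libraries a group limits the precision.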
